A study of Mus musculus with 4 samples.

Results

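Ube3a encodes the ubiquitin ligase UBE3A, and Foxo1, Foxo3 and Foxo4 encode transcription factors of the FOXO family. These 4 genes were taken by symbol from the 32285 genes listed for each library, and their unique molecular identifiers (UMIs, 1 per captured transcript) were read in every barcode with at least 1000 UMIs and at most 20% mitochondrial UMIs. This kept 23572 cells, of which 4922 and 5918 came from Cre- replicates 1 and 3, and 5609 and 7123 from Cre+ replicates 2 and 4. Each library was 1 mammary tumor from 1 mouse, captured in droplets with the 3′ v3 chemistry of 10x Genomics. All 4 tumors were taken at 17 to 18 weeks from mice that carried the PyMT oncogene, the polyoma middle T antigen, and both alleles of Frmd8 with loxP sites around exons 4 to 6 (Frmd8 fl/fl). The Cre+ mice also carried MMTV-Cre, a recombinase under a viral promoter that is most active in the mammary epithelium, and the Cre- mice did not. The floxed and PyMT lines were on a C57BL/6 background, the background of the Cre line is not given in the sources used here, and whether the 4 mice shared a litter is not given either. The cells had been sorted by flow cytometry before capture.

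UBE3A attaches ubiquitin to other proteins through a HECT domain and thereby marks them for the proteasome, and the estrogen receptor ERα, encoded by Esr1, is among its known substrates. In neurons the gene is known for imprinting, since the paternal copy is silenced by a long antisense RNA, Snhg14, while most other tissues use both copies. FOXO factors sit at the end of the PI3K and AKT pathway: AKT phosphorylates them, 14-3-3 proteins then hold them in the cytoplasm, and without that signal they enter the nucleus and activate genes of cell cycle arrest, cell death, stress defense and metabolism. FOXO1 is also known for its role in blood vessels and in naive lymphocytes. In the study, FRMD8, a FERM domain protein, was placed upstream of both: FOXO3 as a factor that acts on ESR1, and UBE3A as the ligase that FRMD8 keeps from ERα. The deposited cells allow the RNA of these genes, not the proteins, to be compared between genotypes and between cell classes.

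In the mouse annotation GENCODE M21 (build GRCm38), whose gene identifiers are those of the files, Ube3a (ENSMUSG00000025326) spans chr7:59228750-59311536 on the plus strand, Foxo1 (ENSMUSG00000044167) chr3:52268336-52353221 on the plus strand, Foxo3 (ENSMUSG00000048756) chr10:42181841-42276755 on the minus strand and Foxo4 (ENSMUSG00000042903) chrX:101254528-101260873 on the plus strand. The last 3613 bases of Ube3a, which hold its 3′ end, are overlapped on the other strand by Snhg14. Whether the counting used strand is not given in the sources used here, and how reads of this stretch were assigned was not tested.

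RefSeq promoter sequences of the same build were at hand for Ube3a, Foxo1 and Foxo3, each running from 250 bases before to 50 bases after the start. They are shown because the levels of Ube3a and of the FOXO genes differed between classes in different ways, and each line reads 5′ to 3′ along the gene, with GC boxes (GGGCGG on either strand, overlaps counted) in capitals.
Ube3a, chr7:59228500-59228799, plus strand: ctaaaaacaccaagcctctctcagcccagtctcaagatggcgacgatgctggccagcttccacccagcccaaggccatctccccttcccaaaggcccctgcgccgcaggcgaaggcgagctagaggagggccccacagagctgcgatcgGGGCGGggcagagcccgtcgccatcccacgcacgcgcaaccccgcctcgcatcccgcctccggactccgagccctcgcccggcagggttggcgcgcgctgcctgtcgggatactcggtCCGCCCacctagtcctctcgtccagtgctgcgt
Foxo1, chr3:52268087-52268386, plus strand: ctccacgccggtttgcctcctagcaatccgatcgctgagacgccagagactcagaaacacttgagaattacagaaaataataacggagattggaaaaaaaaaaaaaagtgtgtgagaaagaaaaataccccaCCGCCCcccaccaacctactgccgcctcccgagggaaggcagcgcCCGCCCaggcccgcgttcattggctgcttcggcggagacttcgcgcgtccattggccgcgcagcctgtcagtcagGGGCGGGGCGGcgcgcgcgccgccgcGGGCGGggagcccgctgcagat
Foxo3, chr10:42276646-42276945, minus strand: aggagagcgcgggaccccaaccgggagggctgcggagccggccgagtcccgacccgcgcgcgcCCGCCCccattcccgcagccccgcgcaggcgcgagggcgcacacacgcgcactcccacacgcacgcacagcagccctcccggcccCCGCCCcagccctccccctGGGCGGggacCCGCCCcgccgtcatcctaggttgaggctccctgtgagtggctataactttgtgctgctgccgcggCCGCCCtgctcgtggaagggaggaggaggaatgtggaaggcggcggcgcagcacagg
The GC content was 69% for Ube3a, 61.3% for Foxo1 and 75% for Foxo3. GC boxes occurred 2 times in the Ube3a promoter, 5 times in that of Foxo1 and 5 times in that of Foxo3, and 35.7% of all 32851 promoters of this length held at least 1. The FOXO site TGTTTAC, on either strand, was in none of the 3 windows and in 3.65% of all promoters, and the estrogen response element, the half-sites GGTCA and TGACC with 3 bases between them, was in none of the 3 and in 0.07% of all.

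Cells were given a class when at least 3 of the 8 to 12 markers of that class reached 1 UMI per 10000 and led every other class by 2 markers, with no member, Esr1 or Pgr among the markers. Where 4 values follow each other, they belong to Cre- replicates 1 and 3 and Cre+ replicates 2 and 4, in this order. The level of a gene is given as CPM, its UMIs summed over the cells of a class in a library, divided by all UMIs of that sum and multiplied by 1000000. 10 classes had at least 20 cells in every library, and in each at least 3 of the 10 leading genes were markers of that class. The gate used these same markers, so this is no independent check of the class names. Between 8.45% and 18.9% of the cells of a library had no class. The 4 libraries held 112729231 to 157662955 UMIs. Cre+ replicate 4 stood apart, since it came from another version of the counting software and held all 2582424 barcodes, empty droplets included, so that version cannot be told apart from that mouse. Barcodes shared between libraries were 6 to 16 per pair. Frmd8 in epithelial cells was at 24.3 CPM in both Cre- libraries, 5.58 in Cre+ replicate 2 and 10.8 in Cre+ replicate 4 (log2 difference -1.48 ± 0.42 SE, adjusted p = 0.999 by edgeR's quasi-likelihood test). The 3′ reads of this kit lie at the transcript end, outside exons 4 to 6, so this is no direct check of the deletion. Krt8, a keratin of luminal cells and itself an epithelial marker of the gate, was at 846 to 2325 CPM in epithelial cells.

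Ube3a was measured in every class, and pericytes, the mural cells of small vessels, stood above the rest. In pericytes it was at 250, 162, 211 and 360 CPM. The lowest of these 4 lay above the highest value of any other class, 153 CPM in the NK cells of Cre+ replicate 2. Against the mean of the other 9 classes on the log scale, the pericyte level was higher by 1.29 ± 0.13 SE (log2, adjusted p = 2.38e-10 by edgeR's quasi-likelihood test with Benjamini-Hochberg adjustment over 12754 genes), in a contrast that called 46.2% of all genes. Pericytes were few, 41 to 78 per library, and the level in each rested on 149 to 322 UMIs.

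Below pericytes, Ube3a was nearly level over most classes. Means over the 4 libraries were 125 CPM ± 26.3 (SD, n = 4) in NK cells, 119 ± 12.5 in epithelial cells, 113 ± 6.48 in endothelial cells, 113 ± 9.33 in fibroblasts and 110 ± 13.1 in T cells, and the ranges of neighbors in this order overlapped. Macrophages (80.8 CPM ± 12), dendritic cells (73.7 ± 11) and monocytes (70.4 ± 2.1) formed a lower step whose range did not reach that of T cells. Neutrophils were lowest, with 57.4, 14.2, 46.8 and 56.7 CPM, and the neutrophil difference was -1.14 ± 0.20 SE (log2, adjusted p = 9.57e-06 by edgeR). That contrast called 45.3% of all genes. The monocyte difference (-0.45 ± 0.17, adjusted p = 0.0291 by edgeR, 37.9% of genes called) was lost without a filter on low counts (-0.47, adjusted p = 0.0664), without Cre- replicate 1 (-0.29, adjusted p = 0.334), without Cre+ replicate 2 (-0.42, adjusted p = 0.133) and without Cre+ replicate 4 (-0.42, adjusted p = 0.0579). In the empty droplets of Cre+ replicate 4, which hold only free RNA, Ube3a was at 46.6 CPM. Krt8, which neutrophils should lack, was at 50.4 CPM in the neutrophils of that library, 7.87% of its level in the empty droplets, and that share of free RNA would bring 3.67 CPM of Ube3a against the 56.7 measured. In neutrophils of Cre- replicates 1 and 3 and Cre+ replicate 2, Krt8 was higher, at 53.4, 76.9 and 147 CPM. These libraries hold no empty droplets, so their share of free RNA could not be read.

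The imprinted neighbors of Ube3a were also read in pericytes. Of the 8 genes listed next to Ube3a, 4 passed the filter on low counts, and all 4 were higher in pericytes, with a median log2 difference of 3.60 against 0.05 over all genes tested. Ndn, the gene of necdin, was at 38.4 CPM ± 10.5 (SD, n = 4) in pericytes and 0.112 ± 0.0513 in epithelial cells, but at 111 ± 13 in fibroblasts, where Ube3a was not raised by the test (0.28 ± 0.14, adjusted p = 0.0782 by edgeR). Snrpn, a splicing factor gene of the imprinted cluster, was at 27.1 CPM ± 4.57 in pericytes, 18.3 ± 2.36 in epithelial cells and 7.12 ± 2.1 in fibroblasts. Snhg14 had 6 to 19 UMIs in the pericytes of a library, against 149 to 322 of Ube3a. How many reads of the overlapping stretch belong to either gene was not tested.

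Among the tested classes, Foxo1 had its highest mean levels in endothelial cells and T cells. In endothelial cells it was at 109, 88.1, 87.5 and 78.3 CPM. The endothelial level was higher than the mean of the other classes by 1.95 ± 0.21 SE (log2, adjusted p = 5.73e-10 by edgeR), with 46.7% of all genes called in that contrast. T cells followed with 84.4, 66.3, 56.3 and 36.5 CPM, a difference of 1.34 ± 0.22 (adjusted p = 4.02e-06 by edgeR, 46.1% of genes called). The ranges of endothelial cells and T cells overlapped.

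NK cells spread most, from 14.2 to 87.2 CPM, and did not pass the test against the other classes (0.63 ± 0.33, adjusted p = 0.145 by edgeR, 34.8% of genes called). Epithelial cells held 32.5, 38.1, 29.6 and 42.7 CPM of Foxo1, and fibroblasts held 34.5, 32.8, 32.4 and 39.6. Both passed the test, at 0.50 ± 0.22 (adjusted p = 0.0453 by edgeR, 58.4% of genes called, median over all genes 0.20) in epithelial cells and at 0.65 ± 0.22 (adjusted p = 0.0123 by edgeR, 57.8% of genes called) in fibroblasts. Both calls were lost without Cre+ replicate 4, at 0.15 (adjusted p = 0.548) in epithelial cells and 0.39 (adjusted p = 0.0898) in fibroblasts, and the epithelial call was also lost without Cre- replicate 1 (0.60, adjusted p = 0.0569), without Cre- replicate 3 (0.58, adjusted p = 0.0814) and with DESeq2 (0.46, adjusted p = 0.0851).

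The myeloid classes were low in Foxo1. Macrophages were at 8.70 to 17.1 CPM, below the mean of the other classes (-0.88 ± 0.24, adjusted p = 0.00369 by edgeR, 39.5% of genes called). In neutrophils Foxo1 had 4, 3, 0 and 1 UMIs, a level of 3.96, 8.55, 0 and 3.15 CPM, and the free RNA share of Cre+ replicate 4 would bring 1.5 of these 3.15 CPM. The neutrophil difference was called (adjusted p = 7.41e-05 by edgeR), but with 8 UMIs in all its size of -2.71 depends on the fit and is no bound. B cells, which were too few to test (11, 13, 21 and 84 cells), were at 87.2, 39.8, 157 and 60.1 CPM.

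Foxo3 had another order, in which neutrophils were highest, with 66.3, 79.8, 33.4 and 69.3 CPM. The value of Cre+ replicate 2 rested on 5 UMIs in 31 cells (95% Poisson interval of the level 10.8 to 78 CPM). That interval holds the values of Cre- replicate 1 and Cre+ replicate 4 and ends below that of Cre- replicate 3. The neutrophil difference was 1.61 ± 0.20 SE (log2, adjusted p = 2.97e-08 by edgeR). The free RNA share of 7.87% in the neutrophils of Cre+ replicate 4 would bring 2.39 CPM of Foxo3 against the 69.3 measured.

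Epithelial cells came next in Foxo3, with 40.2, 48.3, 48.7 and 45.4 CPM, a difference of 0.82 ± 0.15 (adjusted p = 1.48e-05 by edgeR). The other classes with a call were lower. Endothelial cells, highest in Foxo1, were lowest in Foxo3 with 14.4, 16.2, 10.3 and 11.2 CPM (-1.20 ± 0.21, adjusted p = 7.25e-06 by edgeR). Dendritic cells were at 22.5, 14.2, 13.1 and 5.92 CPM (-0.83 ± 0.23, adjusted p = 0.00477 by edgeR, 35.2% of genes called), a call that was lost with a minimum of 10978 UMIs for the cells of Cre+ replicate 4 (-0.58, adjusted p = 0.0551). Monocytes, macrophages, fibroblasts, pericytes, T cells and NK cells had means of 19.3 to 33.2 CPM and did not pass the test, and the ranges of all 9 neighbor pairs in the order of Foxo3 overlapped. Over the 40 class sums, Foxo1 and Foxo3 correlated at r = -0.34, a description across sums that share libraries.

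Foxo4 was sparse, with 715 to 1006 UMIs in a library. Its class means ran from 2.20 CPM ± 2.83 (SD, n = 4) in neutrophils to 11.1 ± 9.02 in NK cells, and all 9 neighbor pairs overlapped. The NK values were 22.7, 8.56, 12.1 and 1.05 CPM on 6, 2, 3 and 2 UMIs, so the highest mean rested on 13 UMIs. Epithelial cells were at 9.78, 5.98, 7.24 and 7.29 CPM, and fibroblasts at 6.81, 8.73, 8.48 and 6.15. Only the fibroblast level passed the test (0.79 ± 0.29, adjusted p = 0.0177 by edgeR), and not without Cre- replicate 3 (0.87, adjusted p = 0.0544) or without Cre+ replicate 2 (0.66, adjusted p = 0.107). With the mouse as a block, epithelial cells also passed (0.60 ± 0.25, adjusted p = 0.0420, against 0.58 ± 0.27 and adjusted p = 0.0663 without it). In all, 14 of the 40 pairs of a member and a class passed the test, 8 higher and 6 lower, where the 10 contrasts together called 44.8% of all genes, so the members were not called more often than genes at large.

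**Figure D1:**
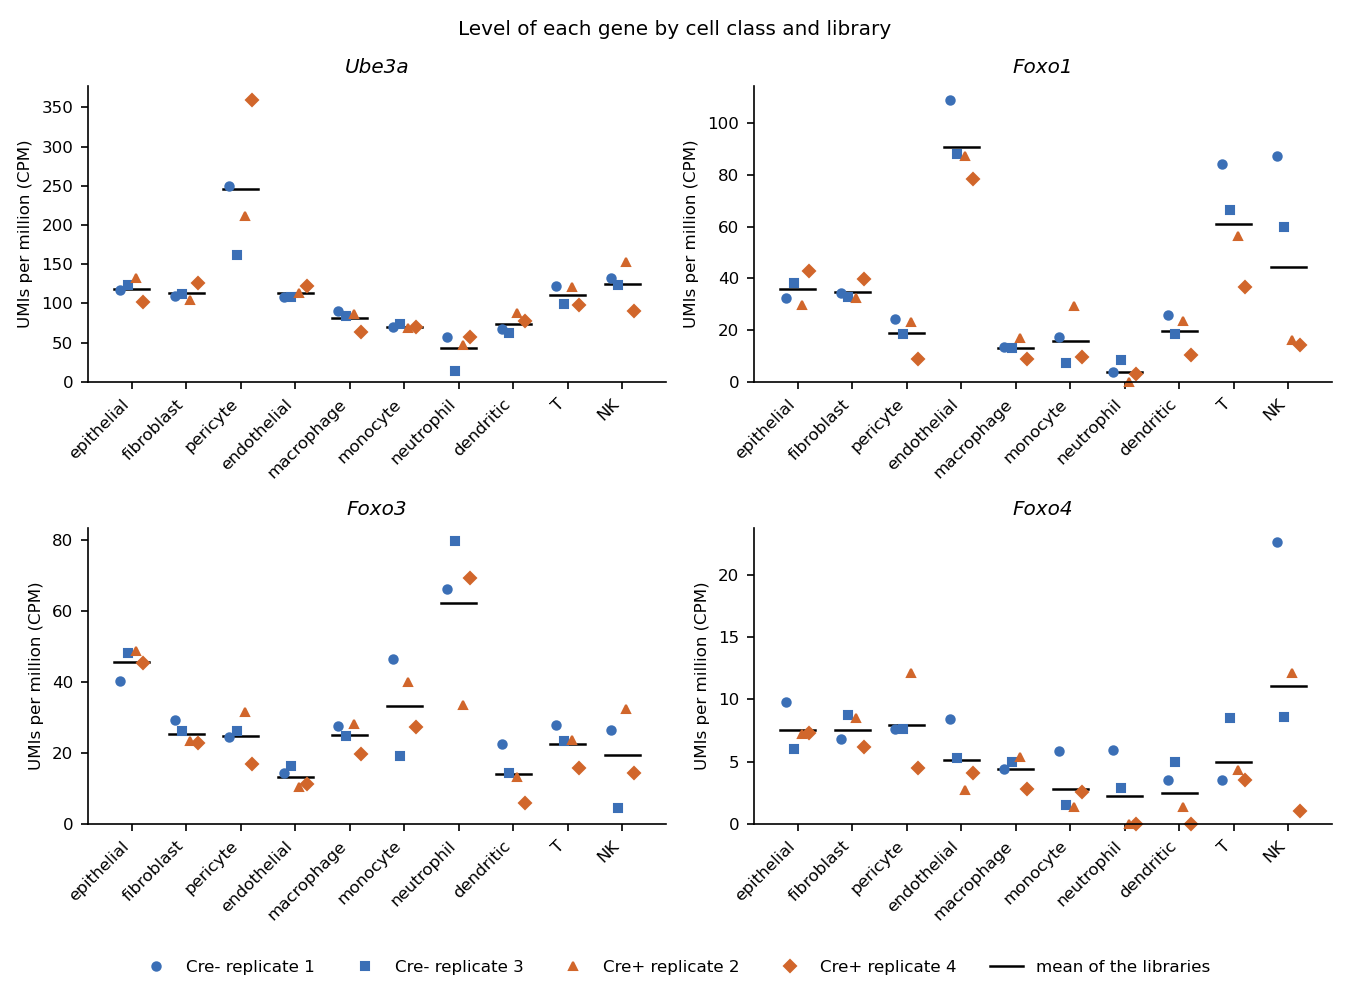
Level of Ube3a, Foxo1, Foxo3 and Foxo4 in CPM (vertical axis, linear, 1 scale per gene) in 10 cell classes. Each point is 1 library, blue for Cre- and orange for Cre+, and the bar is the mean of the 4 libraries. Ube3a peaks in pericytes (162 to 360 CPM), Foxo1 in endothelial cells (78.3 to 109) and Foxo3 in neutrophils (33.4 to 79.8), and Foxo4 has its highest mean in NK cells (1.05 to 22.7).

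The genes most like each member over the 40 class sums (10 classes in 4 libraries, Pearson correlation of log2(CPM + 1), a description) were as follows. For Ube3a they were Gnas (r = 0.82), the gene of a G protein subunit, Raph1 (0.81) and Tcf12 (0.80), all 3 highest in pericytes and lowest in neutrophils. For Foxo1 they were Pwwp3a (0.87) and Arl4a (0.84), both highest in endothelial cells, and Hadhb (0.82), an enzyme subunit of fatty acid oxidation, highest in NK cells. Il1rap (0.80), an interleukin-1 receptor subunit, Cebpb (0.76), a myeloid transcription factor, and Sidt2 (0.76) were most like Foxo3, and all 3 were highest in neutrophils. Among those for Foxo4 were Nek1 (0.77) and Dyrk2 (0.76), where sparse counts limit the comparison.

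The listed FOXO targets were counted in the same contrasts, with no test of a difference between classes. In neutrophils 22.5% of all genes were called higher and 22.7% lower, in endothelial cells 29.7% and 17.0%, and in epithelial cells 38.3% and 20.1%. Of the 10 listed FOXO targets of cell cycle and death, 8 were higher and 0 lower in neutrophils, with a median of 1.87 against -0.19 over all genes. The leading ones were Gadd45a, a DNA damage response gene, at a mean of 289 CPM against 17.4 over the other classes (4.32 ± 0.20, adjusted p = 1.08e-19 by edgeR), Cdkn1a, the cell cycle inhibitor p21, at 878 against 221 (2.64 ± 0.20, adjusted p = 1.79e-13), and Pmaip1, the death gene NOXA, at 106 against 69.9 (2.25 ± 0.28, adjusted p = 2.55e-08). In endothelial cells 0 of these 10 were higher and 4 lower, and in epithelial cells 2 were higher and 5 lower (median -0.47 against 0.20 over all genes). Of the 14 tested targets of stress and metabolism, 5 were higher and 3 lower in neutrophils, 2 higher and 5 lower in endothelial cells, and 10 higher and 2 lower in epithelial cells. Insr, the insulin receptor, led in endothelial cells at 387 CPM against 14 (4.96 ± 0.15, adjusted p = 1.16e-25 by edgeR). In epithelial cells Fbxo32, a ubiquitin ligase subunit of muscle atrophy, led at 75.1 CPM against 12.9 (2.64 ± 0.16, adjusted p = 1.7e-16), before Cited2 at 418 against 122 (1.89 ± 0.19, adjusted p = 1.71e-10). These counts describe the classes, and whether they are particular to FOXO targets was not tested.

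Of the 5 listed FOXO1 targets of lymphocyte homing and survival, 4 were higher in T cells, where 24.6% of all genes were called higher and 21.5% lower. Il7r, the interleukin-7 receptor, was at a mean of 337 CPM in T cells against 14.6 in the other classes (7.57 ± 0.30, adjusted p = 2.05e-20 by edgeR). S1pr1, a receptor for exit from lymph nodes, was at 62.9 against 46.1 (4.86 ± 0.31, adjusted p = 7.12e-15), and it was higher still in endothelial cells, at 368 CPM (7.68 ± 0.24, adjusted p = 1.35e-23). The difference is taken on the log scale over classes, so a gene absent from most classes gives a large value even where the arithmetic means are close.

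The counts of the other listed genes in these classes followed no single direction, and many lay near the shares of all genes just given. In pericytes 28.2% of all genes were called higher and 17.9% lower. Of the 14 upstream kinases and phosphatases, 3 were higher and 8 lower in epithelial cells, 4 and 5 in T cells, 5 and 5 in endothelial cells, and 7 and 4 in neutrophils. Inpp4b, a lipid phosphatase that dampens PI3K signaling, was at 0.358 CPM in epithelial cells against 43.3 in the others (-4.65 ± 0.82, adjusted p = 8.84e-06 by edgeR) and at 201 in T cells (5.50 ± 0.18, adjusted p = 6.08e-24). Of the 7 genes of 14-3-3 proteins, 4 were higher and 0 lower in endothelial cells, and 0 higher and 4 lower in neutrophils. Of 17 other HECT ligases tested, 4 were higher and 4 lower in epithelial cells, 4 and 4 in pericytes, and 8 and 2 in endothelial cells. Nedd4, a HECT ligase of membrane proteins, was at 800 CPM in pericytes (2.96 ± 0.12, adjusted p = 3.77e-21) and at 571 in endothelial cells (2.43 ± 0.13, adjusted p = 1.76e-18). Of the 12 listed partners, conjugating enzymes and substrates of UBE3A, 0 were higher and 4 lower in pericytes, and 5 were higher and 3 lower in endothelial cells, led by Arhgef15 at 138 CPM against 0.285 (10.52 ± 0.26, adjusted p = 9.98e-21).

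Within the epithelium, hormone-sensing cells hold Esr1, and the question was whether Ube3a and Foxo3 differ there. An epithelial cell counted as hormone-sensing when at least 3 of 8 markers were on, Esr1 and Pgr not among them. There were 345, 10, 97 and 0 such cells, so only Cre- replicate 1 and Cre+ replicate 2 could be tested and genotype was not separated. Esr1 was at 55.5 and 59.4 CPM in these cells of the 2 libraries, and it differed from the other epithelial cells by 4.46 ± 0.16 (adjusted p = 0.0013 by edgeR), while Pgr, the progesterone receptor, differed by 5.01 ± 0.41 (adjusted p = 0.00564).

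Ube3a differed little across this gate. It was at 119 CPM in hormone-sensing and 116 in other epithelial cells of Cre- replicate 1, and at 127 and 132 in Cre+ replicate 2, a difference of -0.02 ± 0.13 SE (log2, adjusted p = 0.948 by edgeR). The 3 FOXO genes had lower values in hormone-sensing cells in both libraries, but none passed the test, where 16.0% of all genes did. Foxo3 was at 32.9 against 41.9 CPM in Cre- replicate 1 and at 26.4 against 50.3 in Cre+ replicate 2 (-0.62 ± 0.18, adjusted p = 0.0751 by edgeR). Foxo1 was at 22.6 against 34.8 and at 23.7 against 30 (-0.49 ± 0.16, adjusted p = 0.0981). Foxo4 was at 5.83 against 10.7 and at 4.74 against 7.42 (-0.75 ± 0.31, adjusted p = 0.159). Without the filter on low counts the Foxo3 difference passed (-0.64, adjusted p = 0.0328). Hormone-sensing cells were deeper, with median UMIs of 39691 against 20546 in Cre- replicate 1 and 33102 against 13528 in Cre+ replicate 2. Mki67, a marker of cycling cells, had means of 102 against 43.3 CPM over the 2 libraries (1.21 ± 0.45, adjusted p = 0.133 by edgeR). The part of depth and cycling in these differences, and in those of the listed genes below, was not tested.

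Some listed FOXO targets fell in hormone-sensing cells and none rose, where 8.34% of all genes were called higher and 7.61% lower. Of 15 stress and metabolism targets, 0 rose and 5 fell, among them Cited2 (103 against 463 CPM, -2.17 ± 0.19, adjusted p = 0.00619 by edgeR), Fbxo32 (25.1 against 80.9, -1.73 ± 0.26, adjusted p = 0.0166) and Cat, the catalase gene (30.5 against 82.1, -1.43 ± 0.13, adjusted p = 0.00619). Of 9 tested targets of cell cycle and death, 0 rose and 3 fell, namely Bcl6, Bcl2l11 and Bbc3, the last 2 being pro-death genes. Of the upstream genes, Sgk1, a kinase that phosphorylates FOXO3, rose (363 against 119 CPM, 1.61 ± 0.14, adjusted p = 0.00619), and so did Akt2 (38.2 against 24.5, 0.64 ± 0.13, adjusted p = 0.0343), while Pik3r1, the regulatory subunit of PI3K, fell (164 against 335, -1.04 ± 0.14, adjusted p = 0.0123). Sfn, the 14-3-3 sigma gene, rose as 1 of 7 (435 against 144 CPM, 1.60 ± 0.18, adjusted p = 0.00844). Of the 8 FOXO modifiers and relatives 1 rose, Foxo6, the remaining FOXO gene, at 1.65 CPM against 0.17 (3.23 ± 0.51, adjusted p = 0.0183). Of 17 other HECT ligases 0 rose and 2 fell, Wwp1 and Wwp2, and of the 12 UBE3A partners only Herc2, which binds UBE3A, changed (45.5 against 26.9 CPM, 0.76 ± 0.13, adjusted p = 0.0216). None of the 7 other ubiquitin ligases of ERα that were listed passed the test.

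Other epithelial subclasses were read as a description, with no test. In luminal progenitor-like cells, 729 to 1574 per library, Foxo1 was at 42.3, 42.8, 33.4 and 53.4 CPM, above the epithelial cells without a subclass of the same library (30.2, 35.7, 24.0 and 36.9) in 4 of 4 libraries. Foxo3 was likewise above them in 4 of 4, at 46.2, 59.2, 54.7 and 47.4 against 39.1, 43.3, 42.4 and 43.6 CPM. How many of all genes have this order was not counted. Cycling cells, by the gate given below, were 13 of 986, 63 of 729, 51 of 1574 and 52 of 806 luminal progenitor-like cells. Without a subclass they were 121 of 1086, 213 of 1329, 60 of 738 and 425 of 1956. The part of cycling in these differences was not tested. Basal-like cells, 12 in Cre- replicate 3 and 62 in Cre+ replicate 4, had Foxo1 at 70.7 and 60.1 CPM and Foxo3 at 9.43 and 29.4. Squamous-like cells were found only in Cre+ replicate 4, 54 of them, and held 98.2 CPM of Foxo3 on 120 UMIs (95% Poisson interval 81.4 to 117) against 25.4 CPM of Foxo1. These cells are 1 library, so the value has no replicate.

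**Figure D2:**
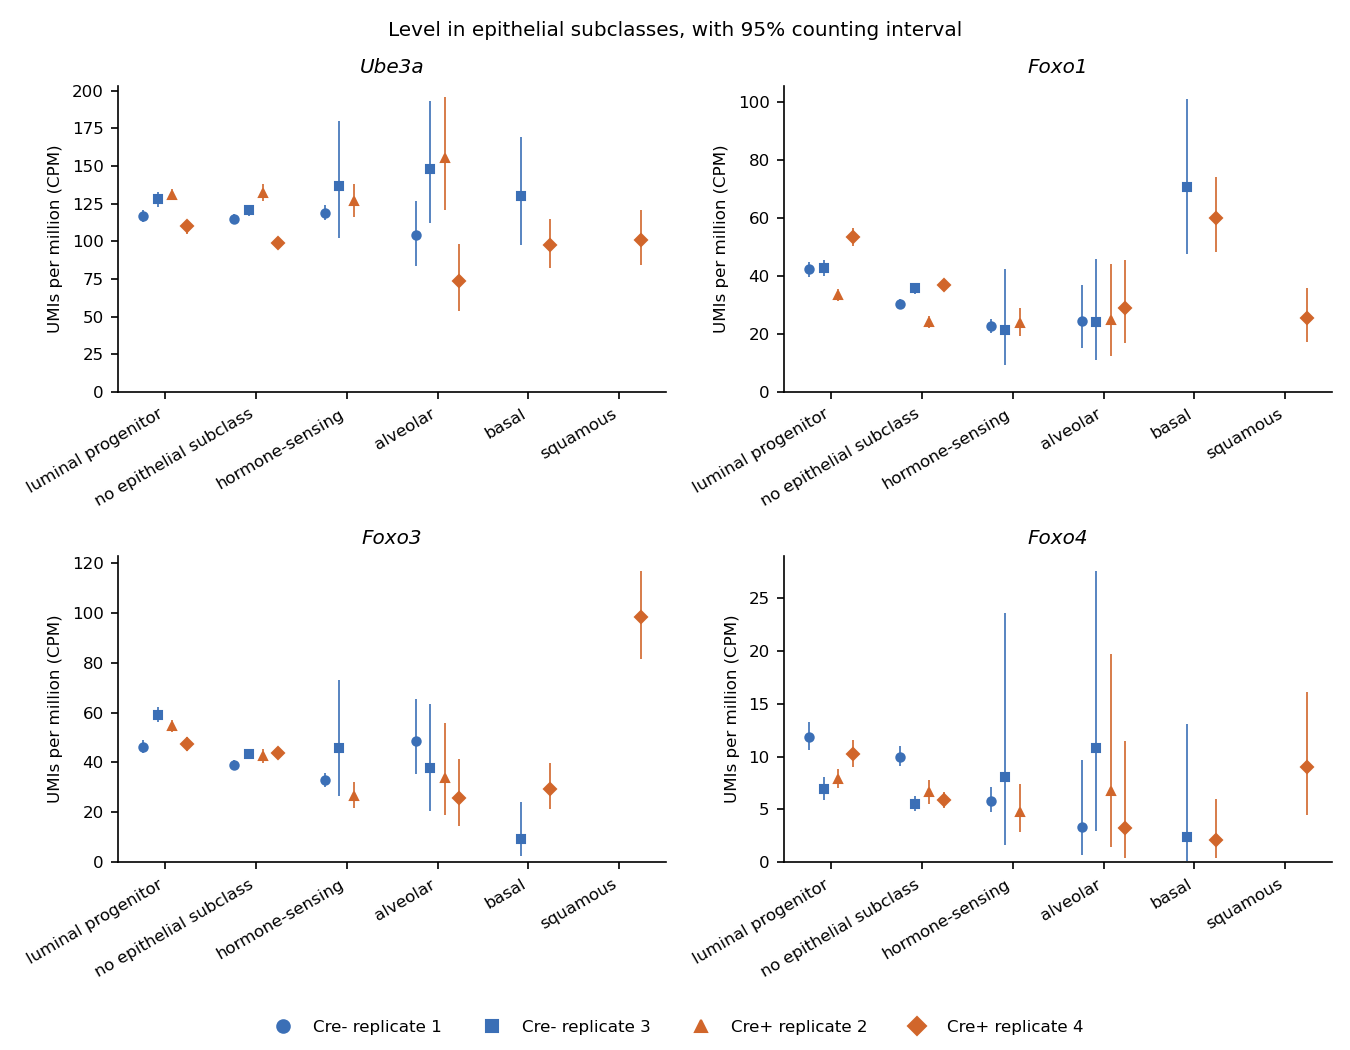
Level of the 4 genes in CPM (vertical axis, linear) in subclasses of epithelial cells, for libraries with at least 10 cells of the subclass. Points are libraries, blue for Cre- and orange for Cre+, and lines are 95% Poisson intervals, which cover counting error only. Foxo3 reaches 98.2 CPM in the squamous-like cells of Cre+ replicate 4, and Foxo1 is above 60 CPM in the basal-like cells shown.

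FOXO factors are known as brakes on the cell cycle, and cycling epithelial cells were therefore compared with the other epithelial cells of the same mouse. A cell counted as cycling when at least 3 of 8 cycle markers, no member among them, were on, which gave 167, 276, 128 and 492 cells. Foxo3 was lower in cycling cells in all 4 mice. It was at 26.9 CPM against 42.2, 26.1 against 54.5, 29.1 against 51.1 and 27.4 against 49.9. The 2 sets of values did not overlap, and the difference was -0.81 ± 0.12 SE (log2, adjusted p = 0.0038 by edgeR), against a median of -0.08 over all 15149 genes. In this contrast 17.2% of all genes were called and 5.78% were called lower. The cycling level was 0.559 ± 0.065 (SD, n = 4) of the other.

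Foxo1 and Foxo4 had the same direction in all 4 mice. Foxo1 was at 23.9 against 33.8 CPM, 25.7 against 41.5, 21.6 against 30.6 and 28.3 against 46.3 (-0.57 ± 0.21, adjusted p = 0.0972 by edgeR). Foxo4 was at 6.39 against 10.3, 5.36 against 6.15, 4.11 against 7.62 and 4.51 against 7.99 (-0.62 ± 0.23, adjusted p = 0.103). Both sums of a library come from 1 mouse, and with the mouse as a block both passed, Foxo1 at -0.57 ± 0.09 (adjusted p = 0.00234) and Foxo4 at -0.60 ± 0.16 (adjusted p = 0.0226), in an edgeR fit that called 6476 genes against 2609 without the block, and 20.5% of genes lower. Without the block Foxo1 also passed when Cre+ replicate 2 (-0.60, adjusted p = 0.0385) or Cre+ replicate 4 (-0.54, adjusted p = 0.0463) was left out. It also passed with limits read from the study's methods (-1.28, adjusted p = 0.013 by edgeR). As worded, those methods exclude cells under 30000 UMIs and cells with 200 to 5000 genes. They were read here in reverse, so that cells under 30000 UMIs with 200 to 5000 genes were kept. Ube3a differed little, at 109 against 118 CPM, 117 against 125, 118 against 134 and 97.6 against 104 (-0.08 ± 0.09, adjusted p = 0.589), a ratio of 0.921 ± 0.0289 (SD, n = 4).

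Depth differed between these cells, with median UMIs of 56108, 32411, 30243.5 and 11681.5 in cycling against 22010.5, 22190, 13509.5 and 13265 in other epithelial cells, higher in 3 of 4 libraries. Among cells of at least 10000 UMIs the Foxo3 difference was -0.82 (adjusted p = 0.0036 by edgeR), and among luminal progenitor-like cells alone it was -0.83 (adjusted p = 0.0305).

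**Figure D3:**
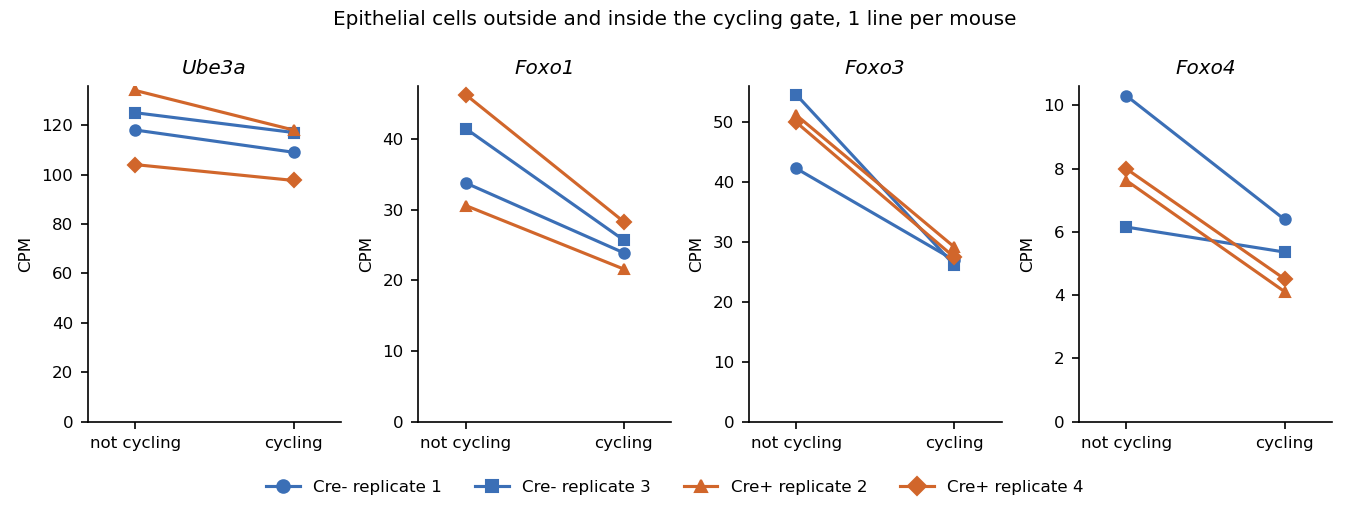
Level of the 4 genes in CPM (vertical axes, linear, from 0) in epithelial cells outside and inside the cycling gate, with 1 line per mouse, blue for Cre- and orange for Cre+. Foxo3 falls in each of the 4 mice, from between 42.2 and 54.5 to between 26.1 and 29.1 CPM, and Ube3a is at 0.921 of its level.

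The listed FOXO targets were lower or not called in cycling cells, where 11.4% of all genes were called higher and 5.78% lower. Of 9 tested targets of cell cycle and death, 0 rose and 3 fell: Gadd45a (15.6 against 34.5 CPM, -1.15 ± 0.21, adjusted p = 0.0108 by edgeR), Bcl6, a transcriptional repressor (16.7 against 35.2, -1.06 ± 0.17, adjusted p = 0.00534), and Ccng2, a cyclin that slows the cycle (13.9 against 26.2, -0.89 ± 0.16, adjusted p = 0.00946). Of 14 targets of stress and metabolism, 0 rose and 5 fell, led by Trib1 (160 against 351 CPM, -1.10 ± 0.20, adjusted p = 0.0106), Klf6 (575 against 1182, adjusted p = 0.00977) and Cited2 (227 against 458, -0.97 ± 0.20, adjusted p = 0.0168). The medians of these lists were -0.70 and -0.77, and that of the 4 tested homing targets, of which Klf2 fell, was -0.65. Of the modifiers, Foxm1, a FOX factor that drives mitosis, and Skp2, a ligase subunit that degrades FOXO1, rose (4.67 ± 0.25, adjusted p = 2.93e-05, and 2.46 ± 0.19, adjusted p = 0.000136), as genes of the cycle themselves.

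Among upstream genes Pik3r1 fell (145 against 316 CPM, -1.08 ± 0.15, adjusted p = 0.0034 by edgeR) and Akt1 rose (97.8 against 61.3, 0.71 ± 0.09, adjusted p = 0.00176), with 12 of 14 not called. Ywhah rose as 1 of 7 genes of 14-3-3 proteins (0.63 ± 0.11, adjusted p = 0.00822). Of the 12 genes around UBE3A, 3 rose and 0 fell, among them Ube2l3, the conjugating enzyme of UBE3A, at 275 against 178 CPM (0.69 ± 0.13, adjusted p = 0.0124), and Trp53. Of 17 other HECT ligases, Nedd4l and Itch fell and 0 rose. Of the 7 other ubiquitin ligases of ERα, 4 rose, led by Bard1 (3.85 ± 0.26, adjusted p = 7.68e-05) and Brca1 (3.70 ± 0.26, adjusted p = 9.81e-05), a ligase pair of DNA repair that is known to peak in S phase, while the 3 tested neighbors of Ube3a and the 7 genes of the FRMD8 and estrogen receptor list had no call.

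The genotype comparison asked whether loss of Frmd8 goes with a change of these RNAs in the tumor cells. In epithelial cells none of the 4 genes separated the genotypes. Foxo3 was at 40.2 and 48.3 CPM in the Cre- libraries and 48.7 and 45.4 in the Cre+ libraries, a log2 difference of 0.15 ± 0.19 SE (Cre+ over Cre-, adjusted p = 0.999 by edgeR). Ube3a was at 117 and 123 against 132 and 102 CPM (0.02 ± 0.17, adjusted p = 0.999), Foxo1 at 32.5 and 38.1 against 29.6 and 42.7 (0.11 ± 0.30, adjusted p = 0.999), and Foxo4 at 9.78 and 5.98 against 7.24 and 7.29 (-0.06 ± 0.36, adjusted p = 0.999). The values of the genotypes overlapped for each of the 4 genes. edgeR called 0 of 16281 genes in epithelial cells, 394 had an unadjusted p under 0.05, and DESeq2 called 56, with no member among them.

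Over all cells and 10 classes, 36 of the 44 pairs of a member and a fit could be tested and 0 passed, where 0.0677% of all genes did, 74 calls by edgeR over the 11 fits with 4358 at an unadjusted p under 0.05, and 264 calls by DESeq2. Of the members 2 had an unadjusted p under 0.05, and both were Foxo1, in T cells and in NK cells. The genotype difference in epithelial cells was also set against that in all other classed cells: Foxo3 differed by 0.18 ± 0.25 (adjusted p = 1 by edgeR), Ube3a by 0.03 ± 0.23, Foxo4 by 0.13 ± 0.58 and Foxo1 by 0.53 ± 0.50, and 0% of genes were called, with 304 of 17558 at an unadjusted p under 0.05 and 7 calls by DESeq2. In the epithelial genotype comparison 0 genes of any of the 11 lists passed. Most of their medians ran from -0.22 to 0.17, against 0.02 over all genes. The others were 0.50 for 5 neighbors of Ube3a and -1.08 for the 7 genes of the FRMD8 and estrogen receptor list. That list holds Frmd8 itself (-1.48). Hormone-sensing cells numbered 345, 10, 97 and 0 per library, and their part in this median was not tested.

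**Figure D4:**
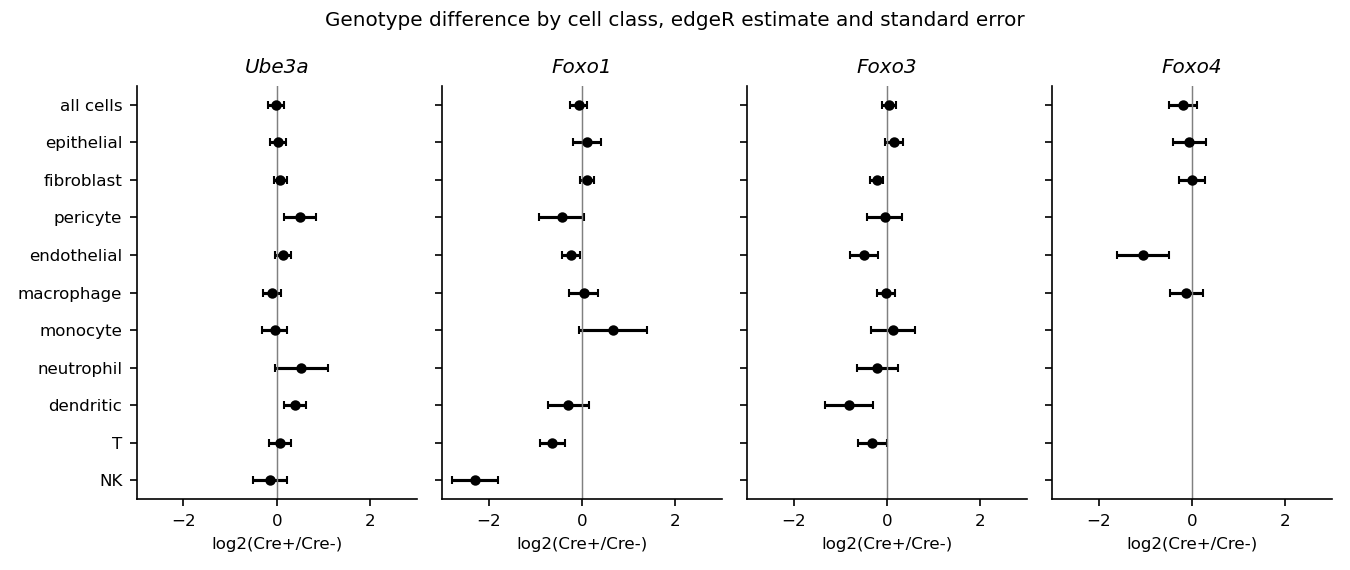
Log2 difference of Cre+ over Cre- (horizontal axis) for the 4 genes in all cells and in each class, with the edgeR estimate as a point and its standard error as a bar. Pairs that did not pass the filter on low counts have no point. The estimates in epithelial cells lie between -0.06 and 0.15, and the lowest value is Foxo1 in NK cells at -2.29.

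The share of cells with at least 1 UMI was compared after each cell was thinned to 1000 UMIs. In epithelial cells Foxo3 was found in 4.04% (95% exact binomial interval 3.28 to 4.91), 5.08% (4.17 to 6.11), 4.66% (3.85 to 5.58) and 3.90% (3.22 to 4.67) of cells, and the difference of -0.28 points had p = 0.667 in an exact two-sided permutation test over libraries, which cannot go below 0.333 with 2 against 2. The free RNA profile of Cre+ replicate 4 alone would give 2.98% in droplets that hold nothing else, and macrophages of that library, where Krt8 was at 3.14% of its level in the empty droplets, were at 2%. Ube3a was found in 11.7%, 10.4%, 13.1% and 8.21% of epithelial cells, Foxo1 in 3.79%, 3.98%, 2.41% and 4.10%, and Foxo4 in 1.22%, 0.431%, 0.707% and 0.483%, with p = 1 for each in the same exact permutation test. Without thinning the Foxo3 share was 52.8% ± 1.19 (SD, n = 2) in Cre- and 42.9% ± 2.52 in Cre+ epithelial cells, whose median depths were 22803.5 to 23371 UMIs in the Cre- and 12983 to 13937.5 in the Cre+ libraries.

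In T cells Foxo1 was at 84.4 and 66.3 CPM in the Cre- and at 56.3 and 36.5 in the Cre+ libraries. Both Cre+ values lay below both Cre- values, as they did for 20.3% of the genes tested in T cells, and the difference of -0.63 ± 0.27 SE had an unadjusted p under 0.05 and an adjusted p = 0.976 by edgeR. T cells outside the cycling gate gave 85.0, 68.8, 56.4 and 39.5 CPM. The order was not shared by all lymphocytes. B cells, too few to test, had values that overlapped between the genotypes. Outside lymphocytes, endothelial Foxo1 had means of 82.9 CPM in Cre+ against 98.8 in Cre- (-0.23 ± 0.19 SE, adjusted p = 0.987 by edgeR). The value of Cre+ replicate 2 lay just below that of Cre- replicate 3. How many genes tested in endothelial cells have both Cre+ values below both Cre- values was not counted. In NK cells Foxo1 was at 87.2 and 59.9 CPM against 16.2 and 14.2, on 23, 14, 4 and 27 UMIs (-2.29 ± 0.50, adjusted p = 0.734 by edgeR), and both Cre+ values were below for 13.6% of the genes tested there. Neither the T cell nor the NK cell difference passed adjustment with all 4 libraries. Without Cre+ replicate 2 both passed, at -0.88 (adjusted p = 0.0352) in T cells and -2.26 (adjusted p = 0.00109) in NK cells, where the lone Cre+ library is assumed to vary like the others, and without the filter on low counts NK cells passed (-2.18, adjusted p = 0.0135).

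Other values of the same cells were read beside Foxo1. Frmd8 itself was at 65.2 and 58.6 CPM in the T cells of Cre- and at 33.2 and 33.0 in those of Cre+ mice (-0.81 ± 0.26, adjusted p = 0.976 by edgeR), but at 45.5 and 55.7 against 44.4 and 41.0 in NK cells. Il7r in T cells was at 273, 612, 342 and 123 CPM and Klf2, a FOXO1 target that keeps lymphocytes quiescent, at 244, 421, 344 and 172, so that the lowest value of both was that of Cre+ replicate 4 and the genotypes overlapped. In NK cells Klf2 was at 368 and 193 CPM against 166 and 36.2. The NK cells of Cre+ replicate 4 were more numerous and deeper, 95 cells with a median of 17896 UMIs against 22 to 26 cells and 8484 to 9710 in the other libraries. Its T cells were deeper too, with a median of 11296 UMIs against 5743 to 7081. The part of these differences between libraries in the Foxo1 values was not tested. Among the lists in T cells, 0 of the 5 homing targets had an unadjusted p under 0.05 (median -0.47 against 0.01 over all genes), 3 of 10 targets of cell cycle and death did (median -0.40), and 4 of 14 of stress and metabolism did (median -0.32), with none past adjustment, where 4.30% of all genes had such a p.

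**Figure D5:**
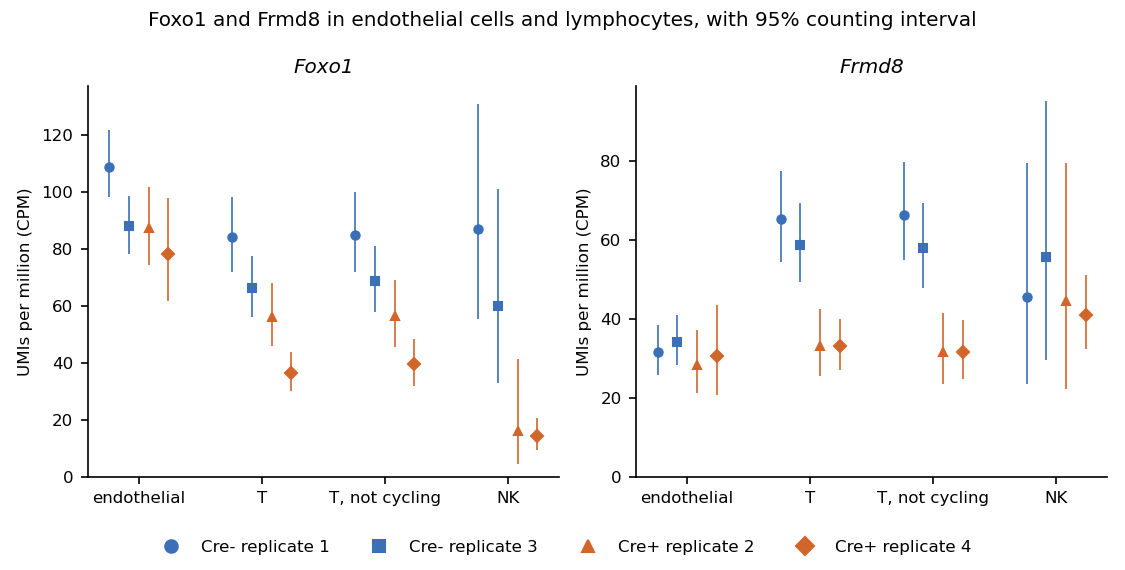
Foxo1 and Frmd8 in CPM (vertical axis, linear) in endothelial cells, T cells, T cells outside the cycling gate and NK cells. Points are libraries, blue for Cre- and orange for Cre+, with 95% Poisson intervals that cover counting error only. Foxo1 lies lower in both Cre+ libraries in T cells (56.3 and 36.5 CPM against 84.4 and 66.3) and NK cells. In endothelial cells Cre+ replicate 2 lies just below Cre- replicate 3 in Foxo1, and the Frmd8 intervals in NK cells overlap.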

How the data were processed

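Single cells of 4 tumors were measured, and the deposited files hold raw UMI counts per gene and barcode, which the authors made with Cell Ranger. Replicates 1 to 3 were deposited as called cells (Cell Ranger 6.1.2) and Cre+ replicate 4 as all barcodes (Cell Ranger 4), so counting version and that mouse cannot be told apart. The labels name a human build, but the gene identifiers are those of mouse, and the build of the counts is not given in the sources used here.

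Cells with at least 1000 UMIs and at most 20% mitochondrial UMIs were kept and classed by marker UMIs; no doublet caller was run, and a cell without a lead of 2 markers over the next class stayed without a class, so doublets that kept such a lead can be among the classed cells. Counts were summed per class and library and tested with edgeR 4.0.16 (quasi-likelihood, TMM, filterByExpr, Benjamini-Hochberg adjustment over all genes, threshold 0.05). DESeq2 1.42.0, no filter on low counts, a stricter gate, stricter calling of Cre+ replicate 4, limits read from the paper, the mouse as a block and each library left out were alternatives; restricting the cycling comparison to deep cells, to luminal progenitor-like cells or to cells outside the hormone-sensing gate was added after the data were seen. Class levels were compared with the mean of the log levels of the other 9 classes. The fits were tested on simulated data. Intervals and limits cover counting error only.

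All members were named, and from each list up to 3 genes past the threshold with the largest change. A few genes that this rule names are not reported here. The members and lists were chosen with earlier results of these data known. Sums of 1 library come from 1 mouse, which pairs them by design. Their deviations from the class means of the genotype correlated between classes. The median r was 0.10 (0.02 to 0.25) in the Cre- and 0.14 (-0.02 to 0.53) in the Cre+ libraries. The 2 libraries of a genotype gave the same values, as deviations from a mean of 2 do. Each mouse is 1 library. In the genotype fits within a class, p-values measure the spread between mice of a genotype. The other fits without the block hold several sums of each mouse. Their p-values rest on the spread left among these sums, which is not the spread between mice alone.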

Additional observations from a re-analysis of the deposited data

How the results depend on the processing

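In the genotype comparison the count of members called was 1 without the filter on low counts and 0 to 2 when 1 library was left out, and the count of epithelial genes called was 56 with DESeq2 and 0 to 8 with 1 library left out. Genes called in hormone-sensing cells numbered 3678 without the filter and 1435 with the limits read from the paper, taken in reverse of its wording to remove cells of 30000 UMIs or more. Genes called in cycling cells numbered 6476 with the mouse as a block and 959 to 2634 with 1 library left out. With the block, Foxo1 (-0.57) and Foxo4 (-0.60) also passed in cycling cells, Foxo4 passed in epithelial cells against the other classes, and the block changed no other call; with the limits read from the paper Foxo1 in cycling cells was at -1.28, and with 1 library left out at -0.54 to -0.60. Foxo3 in hormone-sensing cells was at -0.64 without the filter, and Ube3a there at 0.01 with DESeq2. No paired analysis was possible for genotype because Cre- and Cre+ share no replicate number.

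Signs turned for values that passed no test. In the epithelial genotype comparison Ube3a was at -0.04 and Foxo1 at -0.07 with the limits read from the paper, and leaving out 1 library gave -0.09 to 0.11 for Ube3a, -0.28 to 0.42 for Foxo1 and -0.37 to 0.33 for Foxo4. In the interaction it gave -0.02 to 0.10 for Ube3a, -0.20 to 1.33 for Foxo1 and -0.33 to 0.77 for Foxo4. The difference in the share of cells (Cre+ minus Cre-, points) turned at 2000 UMIs for Ube3a in epithelial cells (0.324) and for Foxo1 (-0.264) and Foxo3 (0.141) in macrophages, and without thinning for Foxo1 in macrophages (-0.111). With 1 library left out it ran in epithelial cells from -2.82 to 2.12 for Ube3a, -1.47 to 0.223 for Foxo1, -0.799 to 0.239 for Foxo3 and -0.625 to 0.164 for Foxo4, and in macrophages from -3.15 to 0.748 for Ube3a, -0.259 to 0.537 for Foxo1, -1 to 0.0493 for Foxo3 and -0.276 to 0.103 for Foxo4. The cause was not tested. Leaving out Cre- replicate 1 or Cre+ replicate 2 left the hormone-sensing comparison 1 library and no test. Stricter calling left neutrophils, and the stricter gate NK cells, under 20 cells in a library, so these have no value there.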

Other observations

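Cycling cells of other classes were read with no test. In macrophages Foxo3 was at 25.4, 14.2, 17.2 and 17.8 CPM in cycling and at 28.0, 26.3, 28.8 and 20.3 in other cells of Cre- replicates 1 and 3 and Cre+ replicates 2 and 4, a ratio of 0.729 ± 0.187 (SD, n = 4) that was under 1 in 4 of 4 libraries. In fibroblasts the ratio was 0.712 ± 0.34, under 1 in 4 of 4, and in T cells 0.429 ± 0.439, under 1 in 3 of 4, both on few UMIs. The Foxo1 ratio was under 1 in 4 of 4 libraries in fibroblasts (0.613 ± 0.146) and T cells (0.847 ± 0.132), and in 2 of 4 in macrophages (0.911 ± 0.238). That of Foxo4 was under 1 in 4 of 4 in fibroblasts (0.434 ± 0.346) and in 2 of 4 in macrophages and T cells. How many of all genes have such an order was not counted.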
